A study of Homo sapiens with 9 samples.

Results

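The clustered protocadherin genes were the 53 protein-coding genes of the count table whose symbols begin with PCDHA, PCDHB or PCDHG in GENCODE release 29, of 19951 protein-coding genes and 58735 genes in all. They numbered 15 in the PCDHA cluster (GRCh38 chromosome 5, 140786136 to 141012347), 16 in the PCDHB cluster (141051135 to 141249365) and 22 in the PCDHG cluster (141330571 to 141512981), all on the plus strand. Poly-A RNA was sequenced from 9 libraries of HEK293T, an established human cell line of embryonic kidney origin that expresses SV40 large T antigen. Lipofectamine RNAiMAX delivered 10 nM of 1 siRNA against PHF12 (3 libraries), 1 siRNA against SUDS3 (3 libraries) or a negative control siRNA (3 libraries), and transfection lasted 36 h in every group. PHF12 and SUDS3 are subunits of SIN3 histone deacetylase complexes, and the comparisons ask which transcripts differ when either is lowered. With 1 siRNA per target, an effect of the lowered gene and another effect of that siRNA cannot be told apart. Whether the replicates came from separate cultures is not stated, and p-values here reflect only how far these libraries vary.

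Clustered protocadherins are adhesion molecules of the cadherin superfamily that form cell-surface recognition units between like molecules and give neurons individual surface identities. In the PCDHA and PCDHG clusters each gene is a variable first exon with its own promoter, spliced to constant exons that all genes of the cluster share, whereas PCDHB genes consist of variable exons alone. Promoter choice in neurons is linked to DNA methylation, to the looping factor CTCF with cohesin and, for the C-type genes at the ends of PCDHA and PCDHG, to separate control. CTCF binds an element of the promoters whose core holds CGCT.

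Windows around the letters CGCTG are shown because these letters include the core of that promoter element. RefSeq promoters (GRCh38.p14) were matched by symbol for 47 of the 53 genes, and the letters CGCTG were searched in the 250 bases before each start site. On the gene's strand, CGCTG was present in 39 of 47 members (83.0%), which were 8 of 13 in PCDHA, 11 of 14 in PCDHB and 20 of 20 in PCDHG. Over all 35116 promoter entries of the same length it was present in 24.8%. A member was counted if any of its entries held the letters, whereas this share is per entry, so the units differ. With either strand counted, which adds the letters CAGCG, the shares were 85.1% of members and 40.8% of all entries. The following 28-base windows, 1 for each gene, plus strand, 5′ to 3′ with CGCTG in capitals, come from the tested members that hold it and from 1 member per cluster with 0 or 1 fragment (PCDHA2, PCDHB4 and PCDHGA4).
PCDHA10 (chr5:140855845-140855872): gccaccggatgtCGCTGtcgtccacaaa
PCDHA2 (chr5:140794785-140794812): gccacatgatgtCGCTGtccaccataga
PCDHB2 (chr5:141094548-141094575): gacgcggggtggCGCTGcagccttagaa
PCDHB15 (chr5:141245318-141245345): aacgcatggtggCGCTGcaggctaaggc
PCDHB4 (chr5:141121727-141121754): gacgcagggtggCGCTGcaggctaagtt
PCDHGA6 (chr5:141373839-141373866): gactctaagcgtCGCTGttgaccaacct
PCDHGA7 (chr5:141382653-141382680): gactcacagcgcCGCTGttcaccaacca
PCDHGA11 (chr5:141420976-141421003): ggctctaggcgcCGCTGctcaccaatca
PCDHGA4 (chr5:141354964-141354991): gactctgggtgtCGCTGttcaccaatca
PCDHGC3 (chr5:141475884-141475911): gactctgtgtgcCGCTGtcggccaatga
PCDHGC4 (chr5:141484956-141484983): gagcccgggagcCGCTGtctgccaatcg

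The 5 bases before CGCTG were gatgt in 6 of the 7 PCDHA members with a full window and ggtgg in 10 of 10 PCDHB members, while the 20 PCDHG members held ggcgc in 6, agcgc in 4 and other letters in the rest. CGCTG was present on the gene's strand in 8 of the 9 tested members, in 23 of 26 matched members that had fragments but were not tested, and in 8 of 12 matched members that were at 0 in all libraries. PCDHB14, PCDHB8, PCDHA4, PCDHA7, PCDHA9, PCDHA11, PCDHA12 and PCDHB1 held no such letters in this window. PCDHA2, at 0 in all 9 libraries, and PCDHA10, seen in all 9, have the same 5 bases before the core. The letters ggagc before CGCTG in PCDHGC4 were found in no other member with a full window. The same held for letters of several other members, such as ggtgt in PCDHGA4 and tgtgc in PCDHGC3. A match is a description of letters and not a measured binding site, and it does not show that the whole element is present.

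Library totals ran from 37962926 to 50946148 counts. Of the counts above 0, 96.1% were multiples of 4, as were all 477 member values, and a read pair or fragment seems to have been counted 4 times. Member values are given below in such fragments (count divided by 4). PHF12 averaged 26.9 ± 2.08 CPM in the PHF12 knockdown and 49.9 ± 0.938 CPM in controls (SD, n = 3 each), so 54.0% was left, and SUDS3 averaged 22.1 ± 0.937 CPM in the SUDS3 knockdown and 111.1 ± 3.31 CPM in controls, so 19.9% was left. The other transcript changed too: SUDS3 averaged 81.0 ± 0.784 CPM in the PHF12 knockdown (72.9% of controls, log2 fold change -0.46, edgeR adjusted p = 6.83e-10) and PHF12 averaged 61.5 ± 1.73 CPM in the SUDS3 knockdown (123.3% of controls, 0.30, adjusted p = 7.19e-05). CPM is the count scaled to library size by TMM. Of 6 markers fixed for HEK293T cells (VIM, KRT8, KRT18, NEFM, NEFL and PAX2), each averaged over 1 CPM in all 3 groups. The lowest, PAX2, averaged 1.35 CPM in the PHF12 knockdown, 1.29 CPM in the SUDS3 knockdown and 1.70 CPM in controls. The summed level of 15 markers of blood, endothelium, liver, muscle, neurons and glia was 9.01 to 11.9 CPM in PHF12 knockdown, 9.34 to 10.7 CPM in SUDS3 knockdown and 10.03 to 11.97 CPM in control libraries, with PTPRC and CD3E at 0 in all 9 libraries. Among them the neuronal markers averaged 0.911 (SYN1), 0.848 (RBFOX3), 0.199 (SNAP25) and 2.79 (SLC17A7) CPM in the PHF12 knockdown, 1.58, 0.758, 0.626 and 2.70 CPM in the SUDS3 knockdown and 1.23, 1.72, 0.268 and 1.76 CPM in controls. Their part in the member values was not tested. Over all 18088 tested genes, 46.4% of the calls in the PHF12 knockdown, 50.5% in the SUDS3 knockdown and 51.8% between the knockdowns (SUDS3 over PHF12) were higher, and with upper-quartile scaling these shares were 56.9%, 44.2% and 41.2%.

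Most clustered protocadherins had few or no counted fragments in these cells. In all 9 libraries together the 53 genes had 885 fragments: 74 in PCDHA, 124 in PCDHB and 687 in PCDHG. Each library held 76 to 122 of them, which is 0.000704% to 0.0011% of its counts. Reads of the constant exons of PCDHA and PCDHG may be missing from these numbers, while PCDHB genes have no constant exon. In PCDHA, 6 of 15 genes had a fragment in any library, against 14 of 16 in PCDHB and 20 of 22 in PCDHG. The other 13 members were at 0 in all 9 libraries: PCDHA2 to PCDHA9 and PCDHAC2, PCDHB1 and PCDHB5, and PCDHGA4 and PCDHGA9. A count of 0 over the 9 libraries allows a level of up to 0.0298 CPM (3 fragments of all libraries together), which covers counting error only. Fragments were seen in every library for 6 members: PCDHA10, PCDHGA6, PCDHGA7, PCDHGA11, PCDHGC3 and PCDHGC4.

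**Figure D1:**
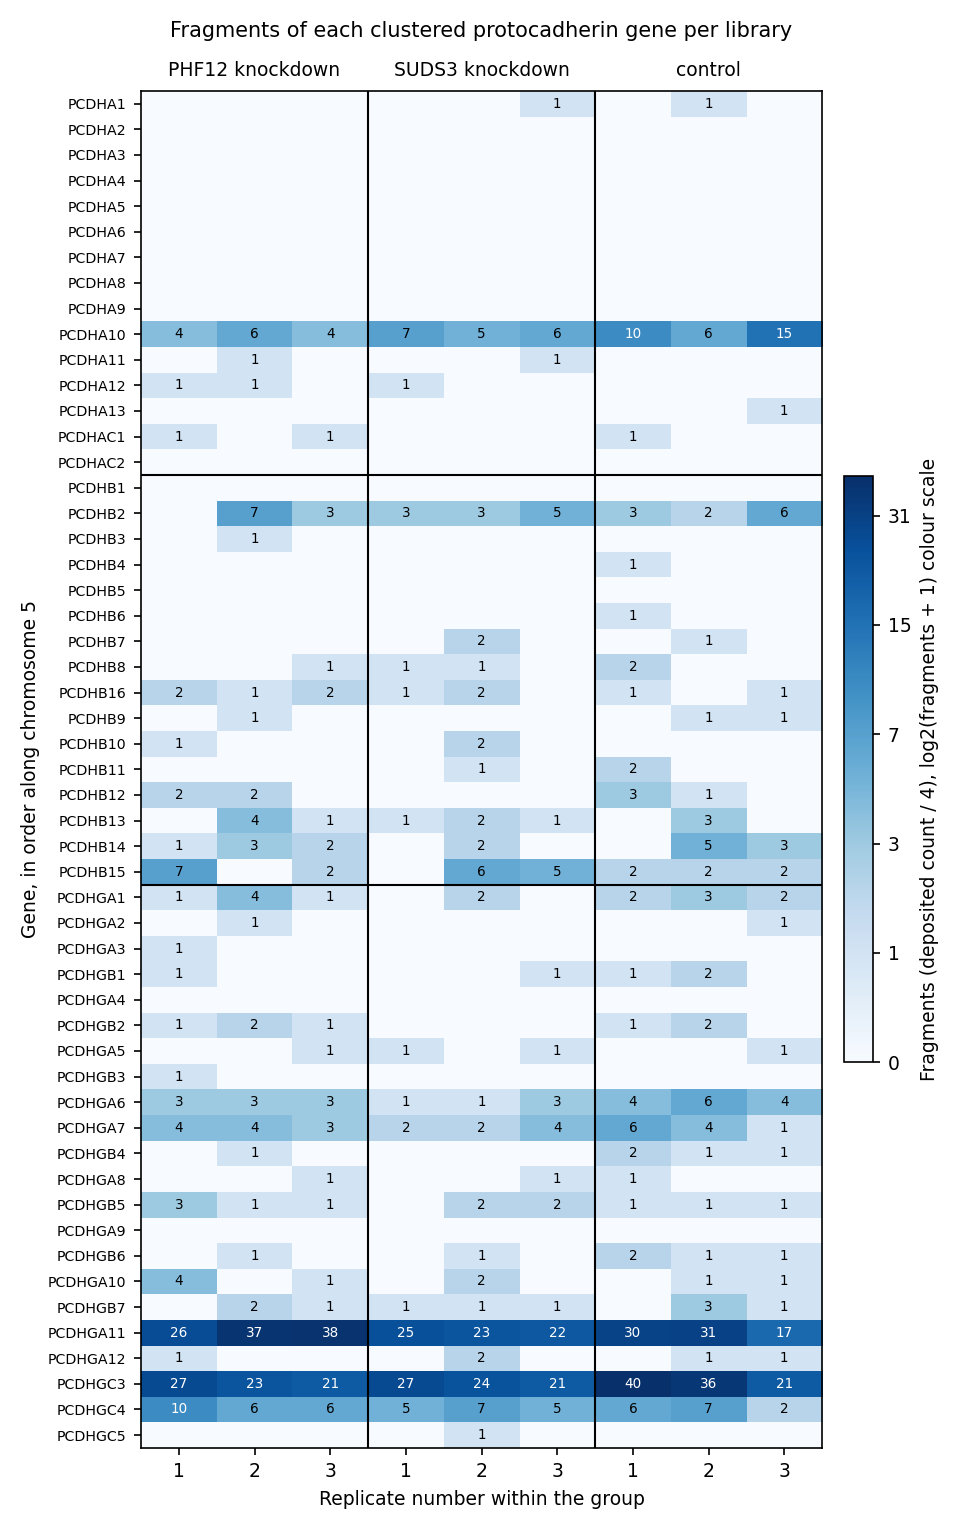
Fragments (deposited count divided by 4) of each of the 53 genes, in chromosomal order from top to bottom, in the 3 PHF12 knockdown, 3 SUDS3 knockdown and 3 control libraries, with darker blue for more fragments on a log2(fragments + 1) colour scale and empty cells at 0. PCDHGA11 and PCDHGC3 carry 17 to 40 fragments in each library, and PCDHA10 has 4 to 15 below a run of 8 PCDHA genes at 0.

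Within clusters the fragments came from few genes. PCDHA10 held 85.1% of the PCDHA fragments. PCDHGA11 and PCDHGC3 held 71.2% of the PCDHG fragments, whereas in PCDHB the leading pair, PCDHB2 and PCDHB15, held 46.8%. By promoter type, the 12 PCDHGA genes had 346 fragments, the 7 PCDHGB genes 46 and the 3 PCDHGC genes 295.

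Reads from the constant exons cannot be assigned to 1 gene. The PCDHA genes share 2866 exon bases and the PCDHG genes share 2181, and the median share of a member's exon bases that no other gene has on its strand is 53.5% in PCDHA and 56.1% in PCDHG, while PCDHB genes share no constant exon. The sources used here do not give how the counting treated such reads or which strand setting it had. PCDHA2 to PCDHA9 and PCDHAC2 hold the same constant exons as PCDHA10, yet were at 0 in all 9 libraries. Reads of those exons were thus not credited to every gene that holds them, and PCDHA and PCDHG values may lack such reads. Levels of different members were therefore compared as CPM per kilobase of unshared exon, as a description. On that scale in controls, PCDHGC3 averaged 0.921 ± 0.224, PCDHGA11 0.662 ± 0.146 and PCDHGC4 0.163 ± 0.0763 CPM per kilobase (SD, n = 3). Of the other tested members, PCDHGA7 was at 0.102 ± 0.068, PCDHA10 at 0.101 ± 0.0538, PCDHB2 at 0.0873 ± 0.0587, PCDHGA6 at 0.076 ± 0.0135, PCDHB14 at 0.0536 ± 0.0481 and PCDHB15 at 0.0519 ± 0.00545. The mean ± SD ranges of neighbours in this order overlap, except those of PCDHGA11 and PCDHGC4.

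Of the 53 members, 9 passed the filter on low counts and were tested: PCDHA10, PCDHB2, PCDHB14, PCDHB15, PCDHGA6, PCDHGA7, PCDHGA11, PCDHGC3 and PCDHGC4. The filter asked for a minimum of 10 counts, or 2.5 fragments, scaled to library size, in at least 3 libraries. It passes a gene on the strength of any 3 libraries, of 1 group or several, so counts over these 9 describe them alone. The other 44 comprised the 13 at 0, 25 with 1 to 8 fragments in all libraries together and 6 with 9 to 15. Those 6 were PCDHGA1 (15 fragments), PCDHB13 and PCDHGB5 (12 each), PCDHB16 and PCDHGB7 (10 each) and PCDHGA10 (9).

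With the PHF12 siRNA, 1 of the 9 tested members fell, 0 rose and 8 did not pass an edgeR adjusted p under 0.05. In the same comparison 31.9% of all 18088 tested genes passed (17.1% lower and 14.8% higher), and 2.4% of the 4034 tested genes with an average log2 CPM under 0. The median log2 fold change of the 9 members was -0.35, against -0.0036 for all tested genes, with 6 members below 0 and 3 above. The gene that fell was PCDHA10 (ENSG00000250120, 140855883 to 141012344), an alternate PCDHA isoform. It had 4, 6 and 4 fragments in PHF12 knockdown libraries, against 10, 6 and 15 fragments in control libraries. In CPM the groups did not overlap, with at most 0.474 in the knockdown and at least 0.519 in controls, but 1 library of each had 6 fragments. PCDHA10 averaged 0.393 ± 0.0734 CPM in the knockdown and 1.01 ± 0.538 CPM in controls (SD, n = 3 each), a log2 fold change of -1.34 (SE 0.52, 95% interval -2.40 to -0.28, edgeR adjusted p = 0.0459). In bulk RNA, fewer cells with a transcript and less of it per cell cannot be told apart.

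The call on PCDHA10 was near the threshold. Without control replicate 3, which held 15 of the 31 control fragments, the log2 fold change was -0.86 (adjusted p = 0.339), and the call also ended without control replicate 1 (-1.40, adjusted p = 0.0721) and without PHF12 knockdown replicate 1 (-1.23, adjusted p = 0.115), 2 (-1.50, adjusted p = 0.0589) or 3 (-1.30, adjusted p = 0.0951). The call was kept by DESeq2 (-1.34, adjusted p = 0.0216). It ended with upper-quartile scaling (-1.30, adjusted p = 0.0519), with no filter (adjusted p = 0.0596) and in limma on the deposited TPM (-0.79, adjusted p = 0.0534). The 0.5 added to TPM before limma shrinks this fold change, since PCDHA10 averaged 0.546 TPM in the knockdown and 1.39 TPM in controls. Over all alternatives run for PCDHA10, the edgeR, DESeq2 and limma adjusted p ran from 0.0178 to 0.339.

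PCDHGC3 (ENSG00000240184, 141475947 to 141512979), a C-type isoform that is transcribed outside neurons too, did not pass with the PHF12 siRNA. It had 27, 23 and 21 fragments in PHF12 knockdown libraries, against 40, 36 and 21 fragments in control libraries. The ranges touch at 21 fragments, since control replicate 3 lies with the knockdown. It averaged 2.00 ± 0.219 CPM in the knockdown and 3.00 ± 0.727 CPM in controls (log2 fold change -0.58, SE 0.24, 95% interval -1.06 to -0.11, edgeR adjusted p = 0.0558). With each count divided by 4 it passed (adjusted p = 0.0395 on the same genes), as it did without control replicate 3 (-0.75, adjusted p = 0.0198).

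PCDHGA11 (ENSG00000253873, 141421047 to 141512979), an A-type isoform of PCDHG, had 26, 37 and 38 fragments in PHF12 knockdown libraries, against 30, 31 and 17 fragments in control libraries. These ranges overlap. Its log2 fold change was 0.25 (SE 0.24, 95% interval -0.23 to 0.73, edgeR adjusted p = 0.489). For PCDHGA11 the interval excluded a change of 2-fold in either direction. It included one for the other 8 members.

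PCDHGA6, another A-type isoform, had 3 fragments in each PHF12 knockdown library, against 4, 6 and 4 fragments in control libraries. In CPM the groups did not overlap (0.237 to 0.278 in the knockdown, 0.366 to 0.519 in controls), yet the log2 fold change of -0.77 had an SE of 0.75 (edgeR adjusted p = 0.503). PCDHA10 and PCDHGA6 were the 2 of 9 members whose groups did not overlap, where 42.1% of all tested genes had groups apart. PCDHGC4, a C-type isoform, had 10, 6 and 6 fragments in PHF12 knockdown libraries and 6, 7 and 2 in control libraries, which overlap (log2 fold change 0.43, SE 0.56). For PCDHB2, PCDHB14, PCDHB15 and PCDHGA7 the log2 fold changes were -0.35, -0.56, 0.43 and -0.12, with an SE of 0.75 to 1.07 and overlapping groups in each.

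**Figure D2:**
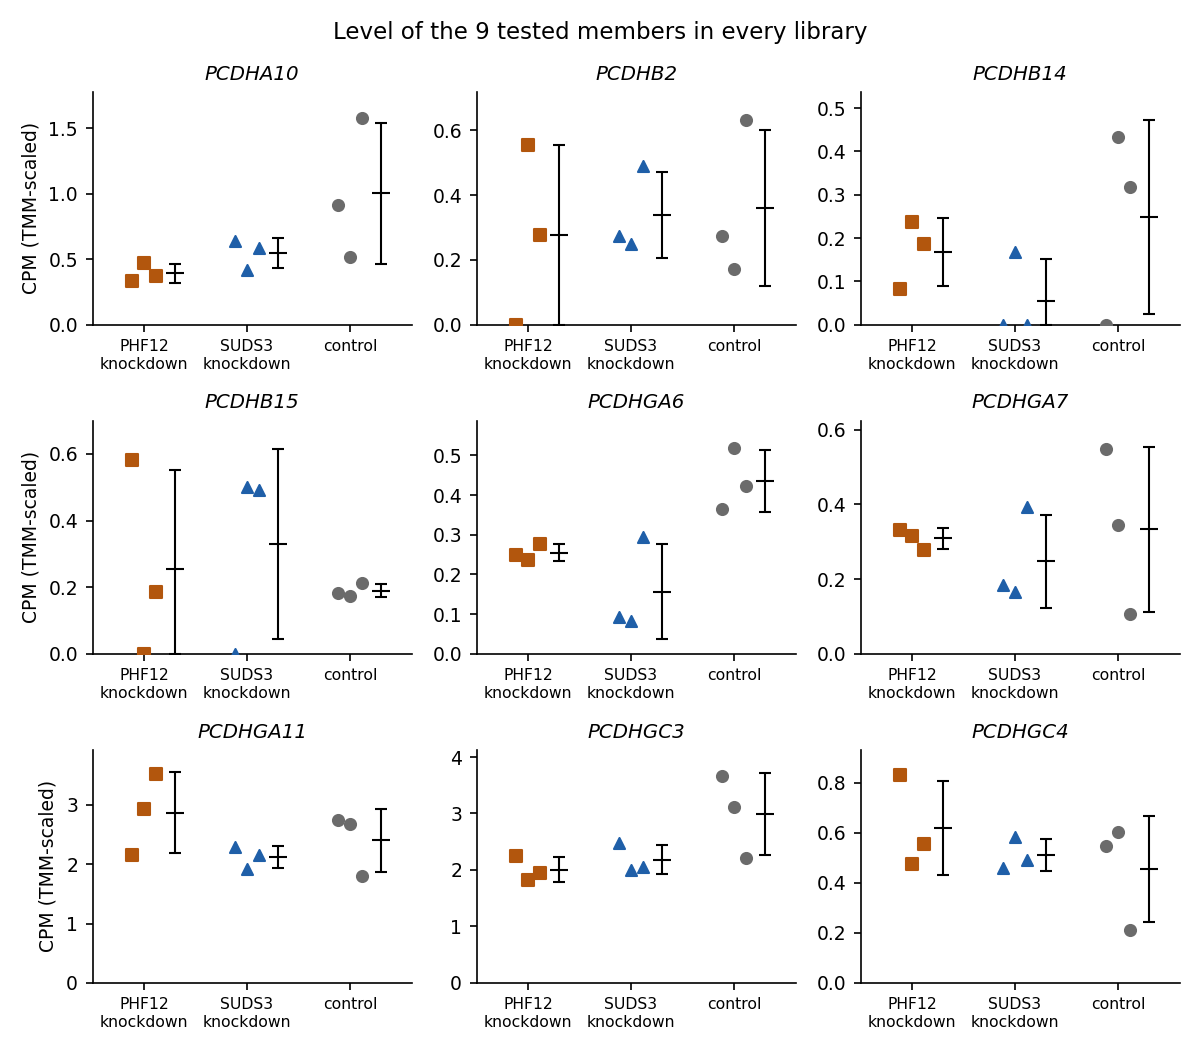
TMM-scaled CPM of the 9 tested members in each library, with PHF12 knockdown (squares), SUDS3 knockdown (triangles) and control (circles) side by side in replicate order and the mean ± SD of 3 libraries as black bars, cut at 0. Control PCDHA10 spreads from 0.519 to 1.58 CPM while the knockdown libraries lie at 0.333 to 0.642 CPM, and PCDHGA11 and PCDHGC3 overlap in all groups.

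With the SUDS3 siRNA, 0 of the 9 tested members rose, 0 fell and 9 did not pass in edgeR, where 38.7% of all tested genes passed (19.6% higher and 19.2% lower), and 4.24% of those with an average log2 CPM under 0. At an unadjusted p under 0.05 the edgeR count was also 0, and DESeq2 (with 1 adjusted p missing) and limma on TPM each called 0. The limma count adds little, since 0.5 was added to TPM and some members lie below that. PCDHGC3, for example, averaged 0.143 TPM in the SUDS3 knockdown and 0.194 TPM in controls. The median log2 fold change of the members was -0.45, against -0.018 for all tested genes, with 7 members below 0 and 2 above. Both knockdowns were set against the same 3 control libraries, so their values for a member are not independent. PCDHGC3 had 27, 24 and 21 fragments in SUDS3 knockdown libraries, against 40, 36 and 21 fragments in control libraries, again with control replicate 3 inside the knockdown range. It averaged 2.18 ± 0.259 CPM in the knockdown and 3.00 ± 0.727 CPM in controls (log2 fold change -0.46, SE 0.24, 95% interval -0.94 to 0.02, edgeR adjusted p = 0.124). Without control replicate 3 it passed (-0.63, adjusted p = 0.0450).

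PCDHGA6 had 1, 1 and 3 fragments in SUDS3 knockdown libraries, against 4, 6 and 4 fragments in control libraries. It was the 1 member of 9 whose groups did not overlap, where 46.6% of all tested genes had groups apart (log2 fold change -1.48, SE 0.79, edgeR adjusted p = 0.146). PCDHB14, a PCDHB gene that shares some exon bases with AC244517.10, had 0, 2 and 0 fragments in SUDS3 knockdown libraries, against 0, 5 and 3 fragments in control libraries. These overlap at 0 (log2 fold change -2.05, SE 1.19, 95% interval -4.47 to 0.38, adjusted p = 0.189). Without SUDS3 knockdown replicate 2, its only library with fragments in that group, PCDHB14 passed (adjusted p = 0.0298) against a group at 0. PCDHGA1, which the main filter left out, had 0, 2 and 0 fragments in the SUDS3 knockdown. It passed in that smaller fit too, again against a group at 0. Leaving out replicate 2 removes all SUDS3 knockdown fragments of both genes, so these passes rest on that removal.

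PCDHA10 had 7, 5 and 6 fragments in SUDS3 knockdown libraries, against 10, 6 and 15 fragments in control libraries, so the groups overlap. Its log2 fold change was -0.86 (SE 0.51, edgeR adjusted p = 0.195), with a 95% interval that includes 0. Without control replicate 3 it was -0.38 (adjusted p = 0.698). PCDHGA11 had 25, 23 and 22 fragments in SUDS3 knockdown libraries, which lie inside the control range (log2 fold change -0.19, SE 0.24, 95% interval -0.67 to 0.30). PCDHGC4 had 5, 7 and 5 fragments in the knockdown, within the control range (log2 fold change 0.16, SE 0.57). PCDHB2, the leading PCDHB gene, had 3, 3 and 5 fragments in SUDS3 knockdown libraries, 0, 7 and 3 in PHF12 knockdown libraries and 3, 2 and 6 in control libraries, with all groups overlapping (log2 fold change -0.08, SE 0.83, with the SUDS3 siRNA). PCDHB15 and PCDHGA7 had log2 fold changes of 0.80 and -0.45 (SE 1.00 and 0.77). For 7 of the 9 members the 95% interval included a change of 2-fold, so a change of that size was not excluded.

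Between the knockdowns, 0 of the 9 members were higher, 0 lower and 9 did not pass for SUDS3 knockdown against PHF12 knockdown in edgeR. Of all tested genes 43.9% passed (22.7% higher and 21.1% lower), and 6.62% of those with an average log2 CPM under 0. At an unadjusted p under 0.05 the edgeR count was also 0, and DESeq2 and limma on TPM each called 0, with the same limit on limma. The median log2 fold change of the members was -0.28, against -0.0086 for all tested genes. PCDHGA11 had 25, 23 and 22 fragments in SUDS3 knockdown libraries, against 26, 37 and 38 fragments in PHF12 knockdown libraries. The fragment numbers do not overlap, but the CPM values do (1.92 to 2.29 in the SUDS3 knockdown, 2.16 to 3.52 in the PHF12 knockdown), and the log2 fold change was -0.43 (SE 0.24, 95% interval -0.92 to 0.05, edgeR adjusted p = 0.145). PCDHB14 differed by -1.49 (SE 1.21) and PCDHA10 by 0.48 (SE 0.53), both with overlapping groups. In CPM, 0 of 9 members had groups apart, where 51.8% of all tested genes did. As against controls, PCDHB14 and PCDHGA1 passed without SUDS3 knockdown replicate 2, which leaves both at 0 in the SUDS3 knockdown.

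**Figure D3:**
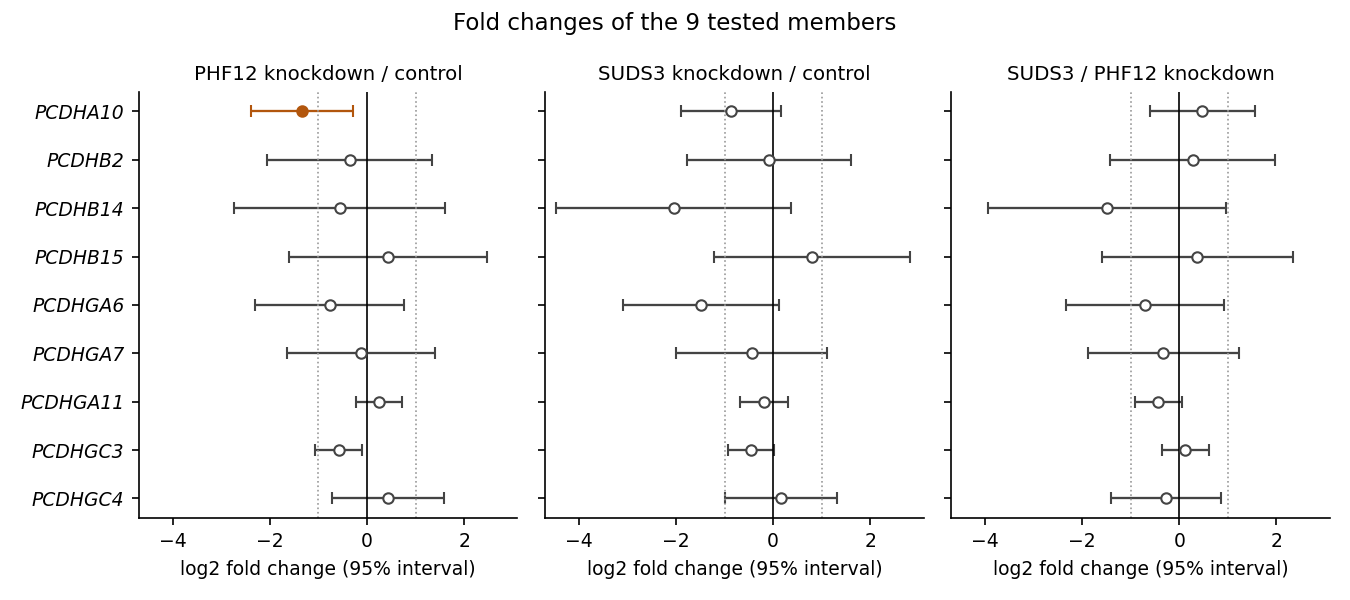
Log2 fold changes of the 9 tested members with 95% intervals in the 3 comparisons (PHF12 knockdown over control, SUDS3 knockdown over control, SUDS3 over PHF12 knockdown), filled where the edgeR adjusted p was under 0.05, with dotted lines at a 2-fold change. PCDHA10 with the PHF12 siRNA (-1.34) is the filled point, and the intervals of PCDHGA11 and PCDHGC3 are the narrow ones.

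The precision of these comparisons follows the low counts. Member log2 fold changes had a median SE of 0.75 in the PHF12 knockdown and 0.77 in the SUDS3 knockdown, against 0.10 for all tested genes in both. The smallest member SE in each comparison was 0.24, that of PCDHGA11 or PCDHGC3.

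The C-type genes differed in level. PCDHAC1 had 1, 0 and 1 fragments in PHF12 knockdown libraries, 0 in each SUDS3 knockdown library and 1, 0 and 0 fragments in control libraries. PCDHAC2 was at 0 in all 9 libraries. PCDHGC5 had 1 fragment, in SUDS3 knockdown replicate 2. C-type isoforms are known in neurons for transcription in most cells of a type. Of the 5, PCDHGC3 and PCDHGC4 had fragments in every library.

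Members that were not tested were too sparse to compare. PCDHGA1, an A-type isoform, had 6 fragments in all PHF12 knockdown libraries together, 2 in SUDS3 knockdown and 7 in control libraries. PCDHB13 had 5, 4 and 3 fragments in PHF12 knockdown, SUDS3 knockdown and control libraries together. PCDHA13 had 1 fragment, in a control library. At 0.0791 to 0.106 CPM for each fragment, values of this size move by their own amount with 1 or 2 fragments.

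Summed over a cluster, the levels are a description with no test. The PCDHA and PCDHG sums may lack reads of constant exons, so they do not compare with the PCDHB sum. The PCDHA sum was 0.499, 0.633 and 0.463 CPM in PHF12 knockdown libraries, 0.734, 0.417 and 0.785 CPM in SUDS3 knockdown libraries and 1.01, 0.605 and 1.69 CPM in control libraries. Both knockdowns overlap with the controls, and this sum is largely that of PCDHA10. The PCDHB sum averaged 1.20 ± 0.263 CPM in the PHF12 knockdown, 1.13 ± 0.602 CPM in the SUDS3 knockdown and 1.35 ± 0.043 CPM in controls (SD, n = 3 each), with overlap throughout.

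The PCDHG sum was 6.90, 6.72 and 7.22 CPM in PHF12 knockdown libraries, 5.69, 5.67 and 5.98 CPM in SUDS3 knockdown libraries and 8.77, 8.56 and 5.81 CPM in control libraries. Control replicate 3, the library with the lowest total count, lies among the SUDS3 knockdown libraries, so each knockdown overlaps with controls, while the knockdowns do not overlap with each other (log2 ratio of means -0.27 for SUDS3 over PHF12). Over all 53 genes the sum was 8.48, 8.86 and 8.71 CPM in PHF12 knockdown libraries, 6.97, 7.84 and 7.85 CPM in SUDS3 knockdown libraries and 11.2, 10.5 and 8.87 CPM in control libraries. The groups do not overlap, but the highest PHF12 knockdown library and the lowest control library differ by less than 1 fragment's worth. The log2 ratio of means was -0.23 for PHF12 knockdown over control and -0.43 for SUDS3 knockdown over control.

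**Figure D4:**
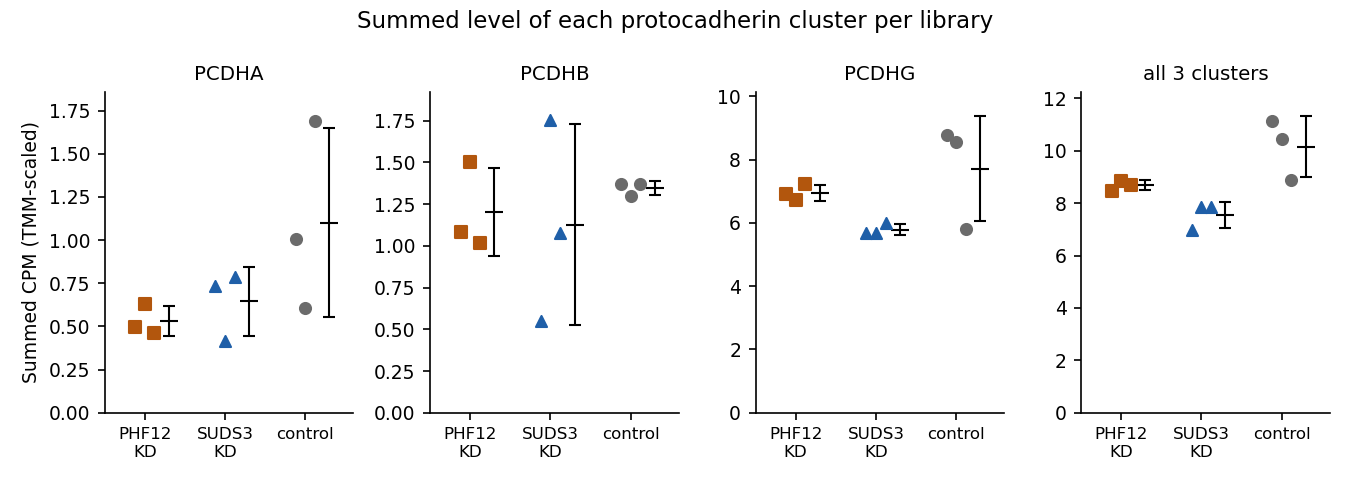
Summed TMM-scaled CPM of the PCDHA, PCDHB and PCDHG members and of all 53 genes in each library, for PHF12 knockdown (KD, squares), SUDS3 knockdown (triangles) and control (circles), with mean ± SD of 3 libraries as black bars and each axis starting at 0. In PCDHG the SUDS3 knockdown libraries (5.67 to 5.98 CPM) lie below the PHF12 knockdown libraries (6.72 to 7.22 CPM), and 1 control library at 5.81 CPM lies among the SUDS3 knockdown libraries.

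Genes whose products act on the clusters changed in both directions. Beside the counts of this list and those below, 31.9% of all tested genes passed with the PHF12 siRNA, 38.7% with the SUDS3 siRNA and 43.9% between the knockdowns. Among tested genes with an average log2 CPM under 0, the shares were 2.4%, 4.24% and 6.62%. Of 30 chromatin and looping regulators of clustered protocadherins, all tested, 11 rose, 5 fell and 14 did not pass with the PHF12 siRNA (median log2 fold change 0.03), and 5 rose, 10 fell and 15 did not pass with the SUDS3 siRNA (median -0.04). RAD21, a subunit of cohesin, averaged 160.2 ± 10.5 CPM in the SUDS3 knockdown and 309.7 ± 15.1 CPM in controls (log2 fold change -0.95, SE 0.04, edgeR adjusted p = 1.49e-20). CBX5, a heterochromatin protein that binds methylated histone H3, fell by 0.45 on the log2 scale (adjusted p = 1.70e-13), and the DNA methyltransferase DNMT3B rose by 0.50 (adjusted p = 6.65e-10) in the same group. In the PHF12 knockdown CBX3, another heterochromatin protein, fell by 0.36 (adjusted p = 4.60e-12), the maintenance methyltransferase DNMT1 rose by 0.28 (adjusted p = 1.74e-09) and the repressor REST rose by 0.41 (adjusted p = 4.59e-07), while REST fell by 0.48 (adjusted p = 2.67e-08) with the SUDS3 siRNA. CBX3 and RAD21 have pseudogenes that can share reads. CTCF, named after its values were seen, averaged 105.6 ± 2.07 CPM in the PHF12 knockdown, 102.2 ± 3.74 CPM in the SUDS3 knockdown and 108.1 ± 3.77 CPM in controls, and did not pass in either (adjusted p = 0.608 and 0.141). Between the knockdowns 6 regulators were higher, 13 lower and 11 did not pass for SUDS3 over PHF12 knockdown.

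Genes listed for intracellular partners and signalling of protocadherins, which reach kinases and the actin cytoskeleton, were mixed too. The list holds signalling genes as well as partners, so a gene in it need not bind a protocadherin. Of its 21 genes, 4 rose, 4 fell and 13 did not pass with the PHF12 siRNA (median 0.01). With the SUDS3 siRNA 10 rose, 5 fell and 6 did not pass (median 0.09). CTNNB1, which encodes beta-catenin and belongs to the list of catenins too, averaged 273.4 ± 12.9 CPM in the PHF12 knockdown and 509.2 ± 10.7 CPM in controls (log2 fold change -0.90, SE 0.03, edgeR adjusted p = 2.24e-22). WASF2, a subunit of the WAVE actin regulator, rose by 0.55 (adjusted p = 2.36e-13) and the kinase FYN by 0.27 (adjusted p = 4.10e-06) with the PHF12 siRNA. With the SUDS3 siRNA, BRK1, the small subunit of WAVE, averaged 111.0 ± 1.88 CPM in the knockdown and 175.1 ± 5.15 CPM in controls (log2 fold change -0.66, SE 0.04, adjusted p = 1.38e-16), while ABI2, another WAVE subunit, rose by 0.37 (adjusted p = 3.79e-09) and the actin-binding protein kinase C substrate MARCKS rose by 0.33 (adjusted p = 1.07e-08).

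The 8 genes listed for protocadherin cleavage were those of the sheddases ADAM10 and ADAM17 and of gamma-secretase. With the PHF12 siRNA 1 rose, 2 fell and 5 did not pass (median 0.08). With the SUDS3 siRNA 4 rose, 1 fell and 3 did not pass (median 0.14). The sheddase ADAM17 fell to 29.3 ± 0.491 CPM in the PHF12 knockdown, against 56.8 ± 1.46 CPM in controls (log2 fold change -0.96, SE 0.06, edgeR adjusted p = 1.99e-16). PSEN2, a catalytic subunit of gamma-secretase, fell by 0.57 (adjusted p = 1.35e-08) and its subunit APH1A rose by 0.25 (adjusted p = 1.91e-06) with the PHF12 siRNA. ADAM10 did not pass with the PHF12 siRNA (0.12, adjusted p = 0.0678). With the SUDS3 siRNA, ADAM10 rose by 0.29 (adjusted p = 1.99e-05) and APH1A by 0.27 (adjusted p = 4.28e-07).

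Protocadherins outside the clusters, single genes with their own promoters, changed gene by gene. Of 12 non-clustered protocadherins 9 were tested, of which 1 rose, 2 fell and 6 did not pass with the PHF12 siRNA (median -0.07), and 2 rose, 1 fell and 6 did not pass with the SUDS3 siRNA (median -0.0004). PCDH7 averaged 23.4 ± 0.666 CPM in the PHF12 knockdown and 33.3 ± 1.01 CPM in controls (log2 fold change -0.51, SE 0.07, edgeR adjusted p = 4.50e-07), and PCDH1 averaged 1.76 ± 0.376 CPM and 3.63 ± 0.752 CPM in the same groups (log2 fold change -1.04, SE 0.21, adjusted p = 0.000191). PCDH18 rose with both siRNAs, by 0.43 with that against PHF12 (adjusted p = 0.0362) and by 0.58 with that against SUDS3 (adjusted p = 0.00347). With the SUDS3 siRNA, PCDH10 rose by 0.17 (adjusted p = 0.0239) and PCDH19 fell by 0.80 (adjusted p = 0.0247). Between the knockdowns, 3 of the 9 were higher, 2 lower and 4 did not pass for SUDS3 over PHF12 knockdown.

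Of 22 classical cadherins and catenins 13 were tested, of which 2 rose, 3 fell and 8 did not pass with the PHF12 siRNA (median 0.10), and 2 rose, 4 fell and 7 did not pass with the SUDS3 siRNA (median -0.13). CDH2, the N-cadherin gene, averaged 42.2 ± 2.47 CPM in the SUDS3 knockdown, 73.7 ± 1.76 CPM in the PHF12 knockdown and 95.5 ± 2.46 CPM in controls. It fell by 1.18 on the log2 scale with the SUDS3 siRNA (edgeR adjusted p = 5.91e-20) and by 0.37 with the PHF12 siRNA (adjusted p = 1.29e-07). CDH1, the E-cadherin gene, fell to 2.12 ± 0.195 CPM in the PHF12 knockdown, against 5.43 ± 0.941 CPM in controls (log2 fold change -1.36, SE 0.19, adjusted p = 4.68e-07). It fell with the SUDS3 siRNA too, to 3.51 ± 0.167 CPM (log2 fold change -0.63, adjusted p = 0.0061). The catenins CTNNA1 and CTNND1 rose by 0.26 and 0.19 with the SUDS3 siRNA (adjusted p = 8.49e-08 and 2.93e-05).

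The genes around the clusters mostly had enough counts for a firm test. TAF7, a general transcription factor gene that lies between PCDHB and PCDHG, averaged 131.4 ± 3.65 CPM in the PHF12 knockdown, 125.6 ± 4.31 CPM in the SUDS3 knockdown and 135.5 ± 6.92 CPM in controls. For the PHF12 knockdown its log2 fold change of -0.04 did not pass (adjusted p = 0.492) and TAF7 fell by 0.11 with the SUDS3 siRNA (edgeR adjusted p = 0.0376). With the 5 nearest tested genes on either side, 11 neighbours had control means of 1.14 to 183.9 CPM. With the PHF12 siRNA 5 rose, 1 fell and 5 did not pass, where 31.9% of all tested genes passed. With the SUDS3 siRNA 7 rose, 1 fell and 3 did not pass, where 38.7% of all tested genes passed.

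Downstream of PCDHG, ARAP3, a regulator of small GTPases, averaged 8.62 ± 0.283 CPM in the PHF12 knockdown and 4.10 ± 0.0673 CPM in controls (log2 fold change 1.07, SE 0.15, edgeR adjusted p = 3.09e-07). RELL2, a TNF receptor-like membrane protein, rose by 0.71 with the SUDS3 siRNA (adjusted p = 1.07e-08) and fell by 0.30 with the PHF12 siRNA (adjusted p = 0.0064). FCHSD1, which overlaps RELL2 on the opposite strand, rose by 0.27 with the PHF12 siRNA (adjusted p = 0.0469) and by 0.33 with the SUDS3 siRNA (adjusted p = 0.0101). DIAPH1, a formin next to PCDHG, rose by 0.15 with the SUDS3 siRNA (adjusted p = 0.000649), and its 0.06 in the PHF12 knockdown did not pass (adjusted p = 0.262). HDAC3, the deacetylase of another repressor complex and one of the 30 regulators, passed in neither (0.03 and 0.05).

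Upstream of PCDHA, ZMAT2, a splicing factor, rose by 0.26 with the PHF12 siRNA (edgeR adjusted p = 2.38e-06) and by 0.22 with the SUDS3 siRNA (adjusted p = 2.95e-05). The histidyl-tRNA synthetase genes HARS (0.10 and 0.17) and HARS2 (0.15 and 0.19) rose with the siRNA against PHF12 and against SUDS3, and WDR55 rose with that against SUDS3 (0.45, adjusted p = 4.08e-08). DND1 passed in neither (0.27 and -0.24). Several of these genes overlap each other on opposite strands, and without the strand setting their reads cannot be told apart. Over the wider region, with AC244517.10 left out of the list, 26 of 30 protein-coding genes within 500 kb of the clusters were tested. Of these 8 rose, 3 fell and 15 did not pass with the PHF12 siRNA, including RNF14, a ubiquitin ligase gene (-0.33, adjusted p = 1.31e-05), and 10 rose, 3 fell and 13 did not pass with the SUDS3 siRNA, including NDUFA2, a subunit of respiratory complex I (0.48, adjusted p = 2.93e-09).

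**Figure D5:**
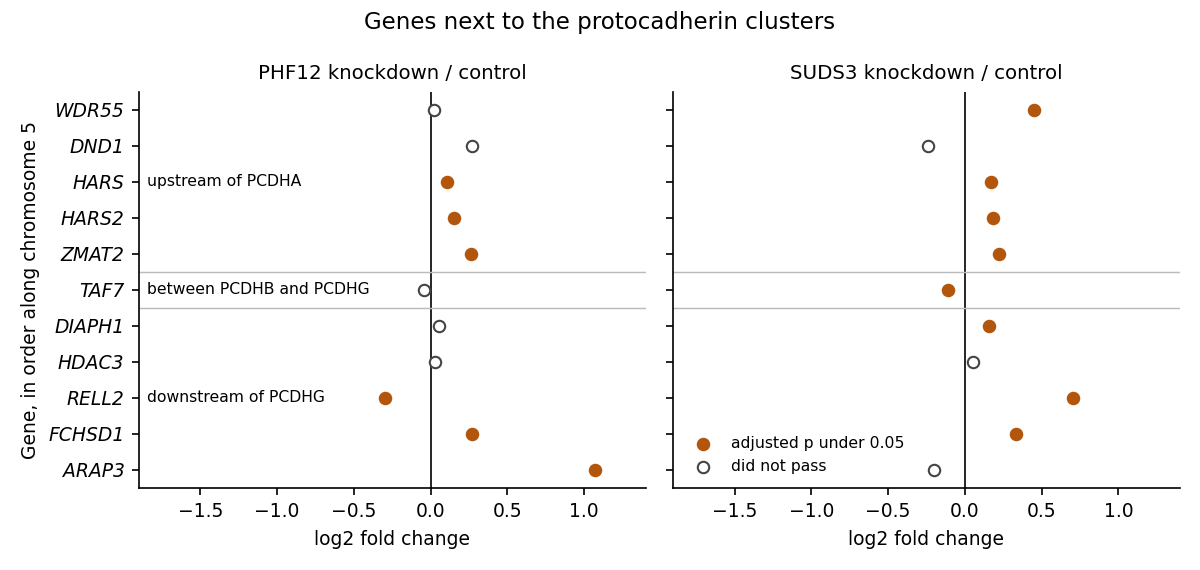
Log2 fold changes of the 5 nearest tested protein-coding genes on each side of the clusters and of TAF7 between PCDHB and PCDHG, in order along chromosome 5, for PHF12 knockdown over control (left) and SUDS3 knockdown over control (right), filled where the edgeR adjusted p was under 0.05. ARAP3 lies at 1.07 in the PHF12 knockdown and -0.20 in the SUDS3 knockdown, and RELL2 at -0.30 and 0.71.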

How the data were processed

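The authors deposited a table of counts per gene and a table of TPM, both with 1 column for each of the 9 HEK293T libraries. Per the labels' protocols, TRIzol RNA was digested with DNase, and TruSeq libraries were poly-A selected and stranded. The submitters' processing notes name Trimmomatic 0.36, HISAT2 2.1.0, HTSeq and GRCh38. Genes were annotated with GENCODE 29. The main test was the robust quasi-likelihood F-test of edgeR 4.0.16 (R 4.3.3) on deposited counts, with a filterByExpr minimum of 10 counts, TMM, 3 group means over all 9 libraries and Benjamini-Hochberg adjustment over 18088 genes. DESeq2 1.42.0, limma 3.58.1 on log2(TPM + 0.5), other scalings and filters, counts divided by 4, a replicate block and fits without 1 library were alternatives. The edgeR step was tested on simulated counts. Of genes with a simulated 2-fold change, it recovered 32 of 49 for the PHF12 knockdown and 33 of 44 for the SUDS3 knockdown. These were drawn from all tested genes, so they do not give the recovery at the low counts of the members. Replicate libraries all differed (chi-square per degree of freedom 1.38 to 2.21).

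The deposited TPM were meant for levels between members. The ratio of count to TPM did not follow exon length, so CPM per unshared kilobase took their place. TPM still served in limma, in choosing named members and in 1 other version of the cluster sums. Named members are those that passed, the 3 with the highest TPM in controls of each cluster, the 3 with the smallest p in each comparison and the C-type genes. PCDHB15 and PCDHGA7 fall outside this rule and are named to account for all 9 tested members, and others only to account for detection or for promoter letters. Other genes are the 3 with the smallest p that passed in each list and the nearest neighbours. The members and lists were chosen with earlier results of these data known. Some values that this rule names are not reported here.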

Additional observations from a re-analysis of the deposited data

How the results depend on the processing

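The 1 member called with the PHF12 siRNA, PCDHA10, became 0 with upper-quartile scaling, no filter, limma on TPM and a replicate block. It was also 0 with a minimum count of 40 and among members that share no exon base, where PCDHA10 was not tested (2 and 1 members were), so neither bears on it. It became 2 (PCDHA10 and PCDHGC3) with counts divided by 4 on the same genes, an alternative chosen after seeing the data. With the filter applied after that division, 2 members were tested and the call was PCDHGC3 (-0.59, adjusted p = 0.0352) in place of PCDHA10. Fits without 1 library called 0 to 1 members with the PHF12 siRNA, 0 to 2 with the SUDS3 siRNA and 0 to 2 between the knockdowns. The cause was not tested. Over all genes the calls stayed within 4887 to 6118, 6100 to 7186 and 7304 to 8214.

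The labels do not say whether replicate numbers pair the libraries. Residuals of same-numbered libraries correlated at -0.016 to 0.03 and those of other pairs at -0.032 to 0.018. Of 9 libraries, 5 correlated best with their own number. Every correlation was near 0, so this comparison cannot decide whether same-numbered libraries share a batch. With the replicate block 5848, 7073 and 7981 genes passed, and 0 members in each comparison (PCDHA10 -1.23, adjusted p = 0.0878).

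Of 467 alternative member fold changes 16 changed sign, 15 of them without 1 library: PCDHB2 (-1.37 to 0.32 with the PHF12 siRNA, -0.44 to 0.59 with the SUDS3 siRNA, -0.31 to 1.29 between knockdowns), PCDHB14 (-1.14 to 0.12) and PCDHB15 (-1.05 to 1.02) with the PHF12 siRNA, PCDHB15 between knockdowns (-0.22 to 1.85), PCDHGA7 (-0.52 to 0.43 with PHF12, -0.93 to 0.10 with SUDS3) and PCDHGC4 with the SUDS3 siRNA (-0.17 to 0.41). In limma on TPM, PCDHB2 was at 0.026 with the SUDS3 siRNA. None of these passed in any of these fits. The summed PCDHG log2 ratio of SUDS3 over PHF12 knockdown was -0.43 with TPM, which weights genes by factors that do not follow exon length and is no check of the CPM sum (-0.27). With 76 to 122 member fragments a library, most member intervals are wide.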

Other observations

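Noncoding genes and pseudogenes inside or between the clusters were also near 0. Of 6 protocadherin pseudogenes, 3 were at 0 in all 9 libraries, and PCDHGB8P had 9 fragments, PCDHB18P 5 and PCDHB17P 1 in all libraries together. Of 13 antisense genes, 12 were at 0 and AC244517.11 had 2 fragments. The long noncoding gene AC005618.1, which lies just before PCDHGA1 and was singled out after its values were seen, had 10 fragments.

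In the deposited TPM, the ratio of count to TPM is a fixed factor for each gene and library, with a coefficient of variation of at most 0.00503% over 6996 genes with high counts in every library. That factor did not follow annotated exon length: Spearman's rho across 15197 genes was -0.0021, as a description over genes that share libraries. PCDHGC3, with 5432 exon bases, has a factor 67.8 times that of PCDHB2, with 4126. As a result PCDHGC3 is listed at 0.194 TPM and PCDHB2 at 1.55 TPM in controls, although PCDHGC3 has 97 control fragments and PCDHB2 has 11.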
